A study of Daphnia magna with 36 samples.

Results

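A total of 150 array features were described that shifted in one direction in all 3 toxicants at the higher of the 2 exposure levels, out of 7680 features on the array and 5664 with enough values to be judged. The array compares RNA of exposed and unexposed Daphnia magna, a freshwater water flea used in toxicity testing, in 2 colours, and each value is a log ratio of the 2 RNAs, read here as log2. Members were chosen from the readout itself. For each feature the median log ratio over exposures was taken in each LC25 group, and a member had an absolute median of at least 0.2 with one sign in all 3 groups and values in at least 3 exposures of each. Of 158 features that met this, the 150 with the largest smallest absolute median were kept, 73 with positive and 77 with negative ratios. The last features inside the limit, P1AH10 and P3BA12, had smallest absolute medians of 0.206 and 0.204, and the first outside it, P2CG12 and P9DG7, both had 0.204.

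Animals were exposed to nanoparticles of zinc oxide (ZnO NP), to dissolved zinc sulphate (ZnSO4) or to nanoparticles of silica (SiO2 NP). The LC25 and LC50 are concentrations at which 25% and 50% of animals die in a toxicity test. The LC25 groups received 9 mg/L ZnO NP, 0.91 mg/L ZnSO4 or 5.1 mg/L SiO2 NP, and the 1/10 LC50 groups received 2.2 mg/L ZnO NP, 0.13 mg/L ZnSO4 or 1.4 mg/L SiO2 NP, with concentrations as the labels give them. All were exposed for 24 h at 25 °C, and every array set them against an unexposed laboratory control. Each RNA sample came from 16 pooled whole adult females aged 10 d. There were 36 arrays, 6 per group, from 23 exposures: 4 with ZnO NP, 5 with ZnSO4 and 4 with SiO2 NP at the LC25, and 4, 3 and 3 in the same order at 1/10 LC50. According to the design text, however, every condition had 3 exposures and each exposure a technical dye swap, which differs from the titles. Each number in the titles was counted as 1 exposure, and if some numbers denote arrays of a shared exposure, the n, SD and SE given here count it more than once. An exposure was measured either on 2 arrays with the dyes exchanged (13 swapped pairs) or on a single array (10). In RNA of whole, pooled animals, fewer cells of a type and less RNA per cell cannot be told apart. The labels do not say whether the exposures had separate unexposed animals, so a shared response and a shared unexposed RNA cannot be told apart, and p-values measure only the spread between these exposures.

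Zinc is an essential metal that many enzymes and DNA-binding proteins hold as a cofactor, and animals limit an excess of it through metal-binding proteins such as metallothioneins and through zinc transporters. ZnO particles dissolve in part and release zinc ions, whereas silica particles supply no zinc. Water fleas filter particles from the water and take them into the gut. Transcripts that shift under unlike toxicants are often discussed as a general stress response, as distinct from a metal response. The features carry plate positions as identifiers and none matched the gene table used for the organism, so members are named by plate position and no gene role can be given to them.

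The deposited values lay close to centred on every array, with array means within 0.0209 of 0 and array medians between -0.07 and 0.11. Between 46.7% and 90.5% of features had a value on an array. Which RNA is the numerator is not stated. The ratios were assumed to share a direction across dye orientations, but 5 of 310 array pairs of one dye orientation correlated below -0.3 across features, the lowest at -0.520, as did 16 of 307 pairs of opposite orientation. Within swapped pairs, which are not among these, the correlation across features ran from -0.258 to 0.715 at the LC25. It was highest with ZnO NP (0.715 and 0.570) and ZnSO4 (0.492). At 1/10 LC50 it ran from -0.298 to 0.356. Values below 0 came from exposure 1 of SiO2 NP at both levels and, at 1/10 LC50, of ZnO NP (-0.207) and ZnSO4 (-0.120). The remaining pairs were above 0. Reading values as Cy5 over Cy3 would turn the sign of each. The direction is therefore not settled, and ratios are called positive or negative only. Turning every sign exchanges the positive and negative members and leaves each test as it is. With values read instead as Cy5 over Cy3, 51 features met the rule, 33 positive and 18 negative, and 20 of them were members, which is 39.2% of those 51 and 13.3% of the members. Values are as deposited except where this reading is named.

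Members were a minority pattern among features that moved at the LC25. In all, 419 features had an absolute median of at least 0.2 in each of the 3 groups, which is 7.40% of the 5664. Of these, 78 were positive and 80 negative in all 3, together 37.7%, held by 2 of the 8 possible sign patterns. The single most frequent pattern was mixed: 153 features, 36.5%, were positive with ZnO NP and SiO2 NP and negative with ZnSO4. The remaining mixed patterns held 47 features negative only with ZnO NP, 34 positive only with ZnSO4, 14 negative only with SiO2 NP, 8 positive only with SiO2 NP and 5 positive only with ZnO NP. The zinc salt and the zinc particle thus shared a sign against silica only in the patterns of 14 and 8 features. Both the number of features and the order of the patterns depended on the reading. Read as Cy5 over Cy3, 121 features (2.14% of the 5664) reached 0.2 in all 3 groups, 51 of them (42.1%) with one sign, and the most frequent pattern was positive in all 3 with 33 features (27.3%), ahead of 23 (19.0%) positive with ZnO NP and SiO2 NP and negative with ZnSO4.

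**Figure D1:**
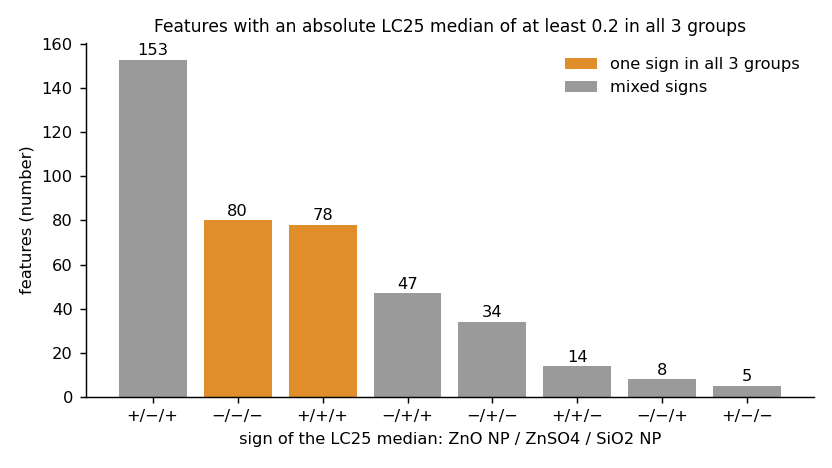
Number of features (vertical axis) with an absolute LC25 median of at least 0.2 in all 3 groups, by the sign of the median with ZnO NP, ZnSO4 and SiO2 NP (horizontal axis). The 2 patterns with a single sign, orange, hold 80 and 78 features, and the tallest bar is a mixed pattern with 153, with values as deposited.

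At the LC25 the shifts were modest, and they are given as a description because they chose the members. Positive members had a median log2 ratio of 0.38 with ZnO NP, 0.47 with ZnSO4 and 0.31 with SiO2 NP, and negative members of -0.38, -0.33 and -0.30 in the same order. SiO2 NP gave the smallest absolute median for 69 members, ZnSO4 for 41 and ZnO NP for 40, while the largest lay with ZnO NP and ZnSO4 for 63 members each and with SiO2 NP for 24. That order did not hold with values read as Cy5 over Cy3, where the smallest lay with SiO2 NP for 39 of the same members, with ZnSO4 for 69 and with ZnO NP for 42, and the largest with ZnO NP for 55, ZnSO4 for 51 and SiO2 NP for 44. Few exceeded 2-fold. With ZnO NP 3 positive and 6 negative members did, with ZnSO4 5 positive and 0 negative members, and with SiO2 NP none of the 150. Of the 5664 judged features, 32, 21 and 1 did in the same order, in either direction.

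The agreement between exposures within a group was limited. A member's sign held in every exposure for 63 of 150 members with ZnO NP (42.0%), 34 with ZnSO4 (22.7%) and 71 with SiO2 NP (47.3%). Among the 5664 judged features, 28.0%, 9.13% and 28.6% kept a single sign, of either direction, in the same groups. The choice used these values and favours the higher shares of members, so nothing is read from the gap. Only 15 members, 10.0%, held their sign in every LC25 exposure in which they had a value. At 1/10 LC50 a member's sign held in every exposure for 18.8% with ZnO NP, 14.3% with ZnSO4 and 17.9% with SiO2 NP. A single sign of either direction was kept there by 16.9%, 26.4% and 24.7% of judged features. These shares count both directions and those of members only their own sign, so nothing is read from the gap. The median SD of members between the 1/10 LC50 exposures, which the choice did not use, was 0.33 with ZnO NP, 0.25 with ZnSO4 and 0.19 with SiO2 NP, against 0.21, 0.17 and 0.14 over the judged features, members included. At the LC25 it was 0.39, 0.44 and 0.27 against 0.27, 0.32 and 0.22, but there a choice by large medians favours features with a wide spread, and nothing is read from it.

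The 1/10 LC50 exposures were not used in choosing members. There, the shift was smaller, which the choice alone favours, since members were kept for large LC25 medians, so the gap between the levels is no measure of a dose effect. Taken over the members of an exposure, each in the sign of its choice, the median log2 ratio was 0.36 ± 0.10 at the LC25 (SD, n = 13 exposures), where it ran from 0.21 to 0.55, and 0.04 ± 0.10 at 1/10 LC50 (SD, n = 10), where it ran from -0.10 to 0.23 and was above 0 in 7 of 10. The 4 ZnO NP exposures at 1/10 LC50 had 0.19, 0.23, 0.06 and -0.06. In the 3 ZnSO4 exposures at that level it was 0.08, 0.01 and -0.10, and in the 3 SiO2 NP exposures 0.04, 0.02 and -0.02. The first 2 ZnO NP exposures, both swapped pairs, were the highest of the 10, and the other 2, single arrays with exposed RNA in Cy3, fell among the rest. The lowest ZnO NP exposure did not behave alike for both signs: its positive members had a median of -0.29 and its negative members of -0.03.

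**Figure D2:**
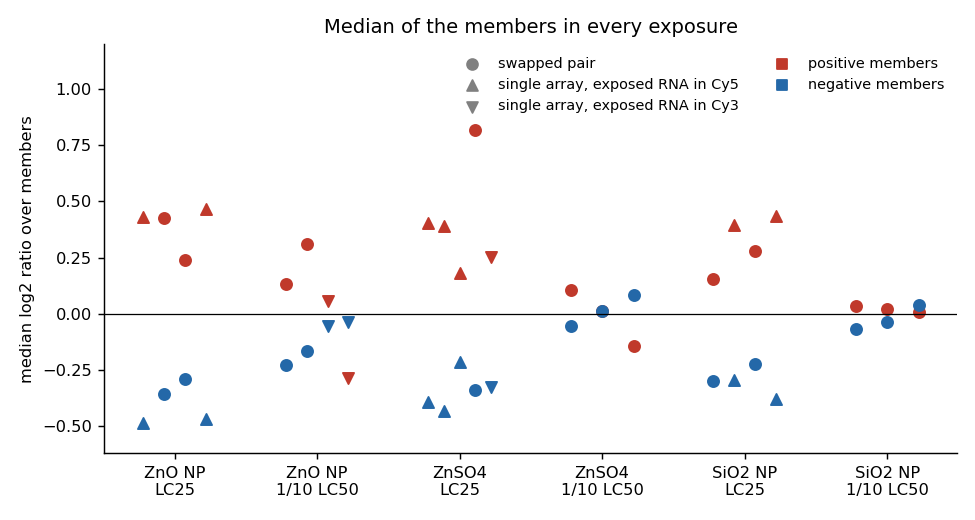
Median log2 ratio over positive members (red) and negative members (blue), one point per exposure, by toxicant and level. Circles are swapped pairs and triangles single arrays, pointing up for exposed RNA in Cy5 and down for Cy3; the 2 colours are apart in every LC25 exposure, which chose the members, and close to 0 or overlapping in most 1/10 LC50 exposures.

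By feature, ZnO NP at 1/10 LC50 was the group in which members most often kept their sign. Its median over exposures was positive for 52 of 72 positive members (72.2%, against 51.6% of judged features) and negative for 57 of 77 negative members (74.0%, against 48.4%). With ZnSO4 the counts were 38 of 72 positive members (52.8%, against 57.1%) and 40 of 75 negative members (53.3%, against 42.9%). With SiO2 NP they were 39 of 72 (54.2%, against 51.0%) and 42 of 73 (57.5%, against 49.0%). Medians of the positive members were 0.13, 0.01 and 0.01 with ZnO NP, ZnSO4 and SiO2 NP, and those of the negative members -0.16, -0.01 and -0.02. All 3 medians at 1/10 LC50 had the member's own sign for 18 of 72 positive members (25.0%, against 15.4% of judged features positive in all 3) and for 24 of 73 negative members (32.9%, against 10.5% negative in all 3).

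No member passed the test at 1/10 LC50. The test was limma's moderated test on exposure averages, with all 6 groups and a dye term in a single fit of 5495 features and Benjamini-Hochberg adjustment over all of them, and a call is an adjusted p under 0.05. It could be applied to 145 members, 72 positive and 73 negative. With ZnO NP 0 of 145 members passed (0% of all features tested), with ZnSO4 0 (0.0182%, a single feature that was no member) and with SiO2 NP 0 (0%). The equal-weight mean of the 3 groups, which has the smallest error, also gave 0 (0%). A member's 95% interval reached a median of 0.23 to either side of its estimate in that mean and between 0.39 and 0.41 in the single groups, so most shifts of the size seen at 1/10 LC50 were not detectable with these exposures.

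Counts at an unadjusted p under 0.05 stood above the background with ZnO NP, in this fit chiefly among negative members. With ZnO NP 4 of 72 positive members (5.56%) reached it in their own sign, where 2.49% of all features did so in the positive direction, and 11 of 73 negative members (15.1%), where 2.29% did so in the negative direction. That difference between the signs depended on the fit. The counts were 9 positive and 11 negative members without the dye term (168 and 111 of all 5495 features). They were 18 and 18 with quality weights (294 and 261) and 11 and 12 after scaling arrays to one spread (231 and 186). After subtracting plate medians they were 5 and 10 (145 and 142), and with a replicate block 2 and 14 (165 and 192). In the fit described above, 0 positive members (0.91% of all features) and 0 negative members (1.22%) reached an unadjusted p under 0.05 in their own sign with ZnSO4. With SiO2 NP the counts were 0 positive members (0.4%) and 1 negative member (0.419%). In the mean of the 3 groups 3 positive members (4.17%, against 1.53%) and 8 negative members (11.0%, against 1.78%) did so, and 95 of 145 members, 65.5%, had their own sign, with a median of 0.04 in that sign. Over all 5495 features, 57.0% of estimates in that mean were positive and the median was 0.01. Estimates had the member's own sign for 77.9% of members with ZnO NP, 49.0% with ZnSO4 and 64.1% with SiO2 NP, and the medians in that sign were 0.15, -0.006 and 0.04. The dye term of this fit was estimated in part from single arrays at the LC25, which chose the members. At 1/10 LC50 it changed only estimates that hold ZnO NP exposures. Without it the own-sign share was 68.3% with ZnO NP and 53.8% in the mean, with medians of 0.09 and 0.01. In the mean 4 positive and 9 negative members then reached an unadjusted p under 0.05 in their own sign (69 and 94 of all features). With values read as Cy5 over Cy3, the same members had their own sign in 81.4% of cases with ZnO NP, 76.6% with ZnSO4 and 66.9% with SiO2 NP, while 45.9%, 45.1% and 47.5% of all features were positive. Under that reading 16 positive and 13 negative members reached an unadjusted p under 0.05 in their own sign with ZnO NP (227 and 276 of all 5495 features in those directions), 4 and 3 with ZnSO4 (84 and 156), 1 and 3 with SiO2 NP (86 and 81), and 22 and 10 in the mean of the 3 groups (386 and 578). In that mean the positive members' share was then 30.6%, against 7.02% of all features, and the negative members' share 13.7%, against 10.5%, so the standing of both signs against the background depended on the reading, as did that of ZnSO4. Fits with array quality weights called 8 of 145 members with ZnO NP and 6 in the mean, where they called 30 and 25 of the 5495 features, and fits on all arrays with the exposure as a random block called 6 and 3, of 19 features in each.

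At the LC25, whose values chose the members, the same fit called 11 of 145 members with ZnO NP (1.09% of all features), 8 with ZnSO4 (0.491%) and 0 with SiO2 NP (0%). These counts follow from the choice and nothing is read from them.

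No difference between toxicants passed the test for any member at 1/10 LC50. The difference of ZnO NP minus ZnSO4 passed for 0 of 145 members (0%), that of ZnO NP minus SiO2 NP for 0 (0%) and that of ZnSO4 minus SiO2 NP for 0 (0%) in limma's test. At an unadjusted p under 0.05 the counts were 6, 6 and 3 members, and 91, 100 and 74 of all 5495 features. Half-widths of the members' 95% intervals, without adjustment, had medians of 0.56, 0.56 and 0.58. At such a width a call after adjustment would need a still larger difference. The absence of a call therefore does not show that the toxicants acted alike. The contrasts share exposures, and each is given for itself.

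The dye orientation was checked because the single arrays at the LC25 were mostly of one kind. Of 8 single arrays there, 7 carried the exposed RNA in Cy5, namely 2 of ZnO NP, 3 of ZnSO4 and 2 of SiO2 NP, and 1 of ZnSO4 carried it in Cy3. At 1/10 LC50 the only single arrays were 2 of ZnO NP, both with exposed RNA in Cy3. A spot that binds one dye better than the other would give a ratio that depends on the orientation, and such a difference does not average out in single arrays. On the LC25 arrays the members' median in their own sign was 0.36 ± 0.09 on Cy5 arrays of swapped pairs and 0.27 ± 0.19 on the Cy3 arrays of the same pairs (SD, n = 5 each). It was 0.38 ± 0.09 on the single Cy5 arrays (SD, n = 7) and 0.30 on the single Cy3 array. All 18 LC25 arrays had the positive members' median above 0 and the negative members' median below 0. The choice favours this, since members were kept for their medians over these same arrays, and nothing is read from it.

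The 8 swapped pairs at 1/10 LC50 show the orientation in arrays that the choice did not use. They were 2 of ZnO NP, 3 of ZnSO4 and 3 of SiO2 NP. Members stood further out in their own sign on the array with exposed RNA in Cy5. Positive members had the higher median on the Cy5 array in 8 of 8 pairs, and negative members the lower median on it in 7 of 8. The median in own sign was 0.15 ± 0.10 on Cy5 arrays and 0.002 ± 0.10 on Cy3 arrays (SD, n = 8 each), and 68.2% of members had their own sign on Cy5 arrays, against 49.2% on Cy3 arrays. At the LC25, Cy5 arrays had the higher median of positive members in 4 of 5 pairs and the lower median of negative members in 2 of 5.

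**Figure D3:**
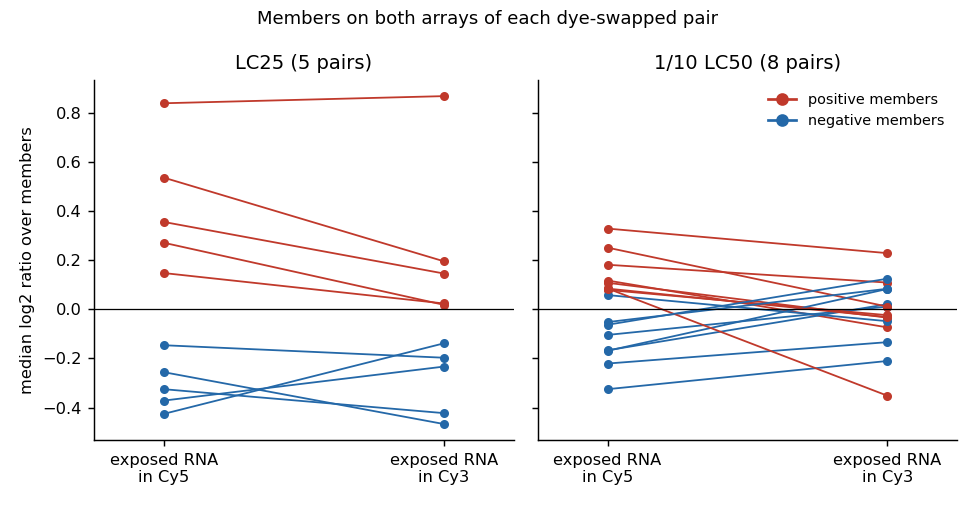
Median log2 ratio over positive (red) and negative (blue) members on both arrays of each swapped pair, with exposed RNA in Cy5 on the left and in Cy3 on the right of each panel; lines join the arrays of a pair. At 1/10 LC50 all 8 red lines fall towards the Cy3 array and 7 of 8 blue lines rise towards it.

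For a test per feature, the dye deviation was taken as the value of the Cy5 array minus the mean of its pair. In the members' own sign its median over members was 0.08 ± 0.04 (SD, n = 8 pairs) and ran from 0.02 to 0.13 across pairs, all above 0. The pair mean, which keeps what both orientations share, was 0.06 ± 0.11 and above 0 in 6 of 8 pairs. It was highest in the ZnO NP pairs, at 0.20 and 0.23. The ZnSO4 pairs had 0.08, 0.007 and -0.11, and the SiO2 NP pairs 0.05, 0.02 and -0.02. This mean and the test on these pairs pool the toxicants, so they do not speak for each toxicant. In limma's test on the 8 pairs, with 6037 features and 143 members valued in at least 5 of them, the dye deviation passed for 13 members (9.09%, against 10.6% of all features), 11 of them in their own sign. The share called among members was thus close to the background, and the dye deviation was widespread on the array. At an unadjusted p under 0.05, 25 of 70 positive members (35.7%, against 13.2% of all features in that direction) and 12 of 73 negative members (16.4%, against 17.3%) deviated in their own sign. The pair mean passed for 0 of 143 members (0%), and at an unadjusted p under 0.05 11 positive members (15.7%, against 3.46%) and 17 negative members (23.3%, against 2.85%) reached it in their own sign. Leaving out ZnSO4 exposure 1 reduced the calls of the dye deviation to 1 member, and leaving out SiO2 NP exposure 1 to 4. Under the reading of values as Cy5 over Cy3 the dye deviation and the pair mean exchange their roles. How far the dye deviation set the choice of members was not tested.

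**Figure D4:**
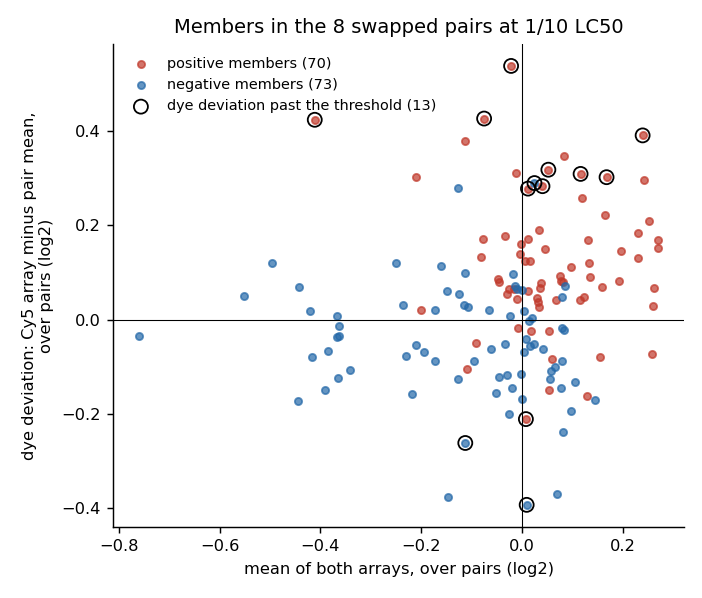
Each point is a member in the 8 swapped pairs at 1/10 LC50, with the mean of both arrays on the horizontal axis and the dye deviation on the vertical axis (both log2, averaged over pairs); circles mark the 13 members whose dye deviation passed the threshold. Positive members (red) lie mostly above the horizontal line, negative members (blue) on both sides of it.

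The dye deviation with the largest sizes among called members was found for P4BG10 and P12CD9, both positive, and for A6G17 and A7G16, both negative. P4BG10 lay 0.54 ± 0.09 above the pair mean on the Cy5 array (SE, 8 pairs; adjusted p = 0.0175), while its pair mean was -0.02 ± 0.12. P12CD9 had a dye deviation of 0.43 ± 0.10 (adjusted p = 0.0257) and a pair mean of -0.08 ± 0.11. The pair means of both positive members thus lay within 1 SE of 0, and the dye deviations several SE from it. A6G17 had a dye deviation of -0.39 ± 0.08 (adjusted p = 0.0237) and a pair mean of 0.009 ± 0.09, and A7G16 of -0.26 ± 0.07 (adjusted p = 0.0430) and -0.11 ± 0.06. Without ZnSO4 exposure 1 none of the 4 passed (limma, adjusted p between 0.0524 and 0.0987), and without SiO2 NP exposure 1 P4BG10 alone did. A7G16 passed in 4 of 11 alternatives.

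The strongest positive members by their smallest LC25 median were P11AH8 and A4O9. P11AH8 had log2 ratios of 1.01, 0.94, -1.02 and 1.16 in the ZnO NP exposures at the LC25, 0.69, 1.23, -0.04, 1.72 and 1.30 in those of ZnSO4, and 0.10, 1.36, 0.97 and 1.00 in those of SiO2 NP. At 1/10 LC50 it had 0.71, 0.86, -0.02 and -1.90 with ZnO NP, -0.03, 0.03 and -1.33 with ZnSO4, and 0.33, 0.02 and 0.09 with SiO2 NP. Its ratio was above 0.6 in 10 of the 13 LC25 exposures and strongly negative in 1 of them, and the levels overlapped. A4O9 had 0.92, 0.64 and -0.98 with ZnO NP, 1.04, 1.22, -0.40, 1.83 and 1.89 with ZnSO4, and -0.43, 1.31, 0.79 and 0.91 with SiO2 NP at the LC25. A4O9 at 1/10 LC50 had 0.13, 0.57, 0.54 and -0.82 with ZnO NP, 0.26, 0.46 and -0.82 with ZnSO4, and -0.05, -0.16 and -0.006 with SiO2 NP. Both were negative in ZnO NP exposure 3, on both arrays, and ZnSO4 exposure 3, a single Cy5 array, at the LC25. At 1/10 LC50 both were negative in ZnO NP exposure 4, a single Cy3 array, and ZnSO4 exposure 3. In that ZnSO4 exposure the arrays differed in sign. P11AH8 was at 0.44 with exposed RNA in Cy5 and -3.09 in Cy3, and A4O9 at 0.30 and -1.93. Dye deviations over pairs were 0.35 ± 0.16 for P11AH8 (SE, limma, adjusted p = 0.166) and 0.08 ± 0.15 for A4O9 (adjusted p = 0.746). In the mean of the 3 groups at 1/10 LC50 P11AH8 was at -0.07 ± 0.24 and A4O9 at -0.005 ± 0.23 (SE, limma), with adjusted p = 1.00 for each.

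The negative members with the largest smallest medians were P6BG10 and P6CB10, and they differed in how their exposures spread. At the LC25 P6BG10 had -0.96, 1.86, -2.67 and -0.22 with ZnO NP, -0.40, -1.25, 0.90, 0.25 and -0.81 with ZnSO4, and -0.97, -0.64, 1.31 and -0.26 with SiO2 NP. Its medians of -0.59, -0.40 and -0.45 stood against SDs of 1.88, 0.85 and 1.01, so the shift was smaller than the spread in each group. P6BG10 had a value on only 1 array in each ZnO NP exposure at the LC25. P6CB10 had -0.77, -0.41, -0.33 and -0.17 with ZnO NP, -0.44, -1.01, -0.36, 0.09 and 0.58 with ZnSO4, and -0.39, -0.40, -0.39 and -0.03 with SiO2 NP. It was negative in every ZnO NP and SiO2 NP exposure at the LC25 and in 3 of 5 with ZnSO4. Leaving out 1 ZnSO4 exposure moved the smallest LC25 median of P6BG10, in absolute size, from 0.40 to as little as 0.07 (without exposure 2 or 5) and that of P6CB10 from 0.36 to as little as 0.14 (without exposure 1 or 2), so both values rest on single exposures. At 1/10 LC50 P6CB10 lay between -0.19 and 0.21 in all 10 exposures, and its mean over the groups was -0.06 ± 0.09 (SE, limma; adjusted p = 1.00).

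The members with the lowest p in the mean at 1/10 LC50 were P9DC5 among negative and P4CH2 among positive members. P9DC5 had -1.77, -0.94, -0.51 and -1.08 with ZnO NP, -1.17, -1.60, -0.83, -0.67 and -0.90 with ZnSO4, and -0.17, -0.37, -0.06 and -0.37 with SiO2 NP at the LC25. At 1/10 LC50 it had -0.50, -1.23, -0.61 and 0.06 with ZnO NP, -0.22, -0.57 and -0.17 with ZnSO4, and -0.008, -0.47 and -0.15 with SiO2 NP. It was negative in 22 of 23 exposures, and its ratios at the LC25 lay further from 0 in both zinc groups than with SiO2 NP, with ZnO NP and ZnSO4 exposures at -0.51 or below and SiO2 NP exposures at -0.37 or above. Read as Cy5 over Cy3, P9DC5 was negative in 17 of 23 exposures, and at the LC25 the exposures of all 3 toxicants overlapped, since 1 ZnO NP exposure was at 0.05 and another at -0.004, and 2 ZnSO4 exposures were at 0.04 and 0.90. In limma's fit P9DC5 was at -0.43 ± 0.10 in the mean at 1/10 LC50 (SE; unadjusted p = 0.000378, adjusted p = 0.464), and its dye deviation was -0.08 ± 0.05 (adjusted p = 0.355). It passed under array quality weights (adjusted p = 0.00221) and with the exposure as a random block (adjusted p = 0.0137), and in no other of its 22 alternatives, and was at -0.16 (adjusted p = 0.469) with values read as Cy5 over Cy3.

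P4CH2, the positive member with the lowest p there, had 0.23, 0.33 and 0.54 with ZnO NP, 0.27, 0.23 and 0.43 with ZnSO4, and 0.06, 0.20 and 0.34 with SiO2 NP at 1/10 LC50, all above 0 in the 9 exposures with a value. At the LC25 it had 0.76, 0.23, 0.56 and -0.15 with ZnO NP, 0.75, 0.19, 0.45, 0.97 and -0.12 with ZnSO4, and 0.49, 0.35, 0.54 and 0.08 with SiO2 NP. P4CH2 was at 0.29 ± 0.10 in the mean at 1/10 LC50 (SE, limma; unadjusted p = 0.00840, adjusted p = 1.00), and its dye deviation was 0.07 ± 0.06. That mean was 0.01 with a replicate block and 0.03 with values read as Cy5 over Cy3. The levels overlapped for it in all 3 toxicants.

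**Figure D5:**
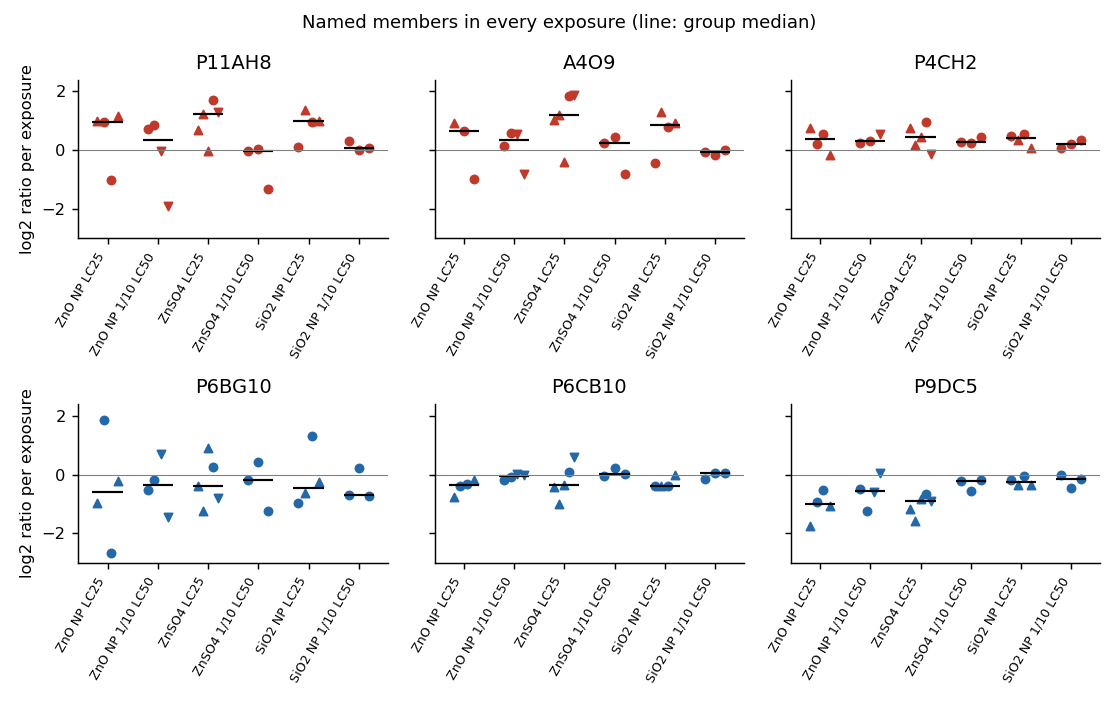
Log2 ratio of 6 named members in every exposure, by toxicant and level, with positive members in the upper and negative members in the lower panels. Symbols are as in the plot of medians by exposure, circles also standing for swapped pairs in which only 1 array had a value, and lines mark group medians; with values as deposited P9DC5 lies below 0 in 22 of 23 exposures (17 of 23 when read as Cy5 over Cy3), whereas P6BG10 lies on both sides of 0 in all 6 groups.

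Members were spread over the array's source plates. They came from 53 of 59 plates. Plates whose names begin with A held 32 members among 1469 judged features (2.18%), 10 positive and 22 negative, and plates whose names begin with P held 118 among 4195 (2.81%), 63 positive and 55 negative. The most members on a plate were the 7 of plate P11A, all positive, among 88 judged features. Members in adjacent wells formed 6 pairs, 5 of them of one sign. Members were valued about as often as other features: 52 had a value on every array, and the median member had a value on 35 arrays, against 34 for the median judged feature.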

How the data were processed

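RNA of exposed and unexposed Daphnia magna was compared on 2-colour arrays. The authors deposited a table of log ratios, read here as log2 values, and how they were made (log base, numerator, background correction, normalization) is not given in the sources used here. Another base would scale every size alike. Arrays of one numbered exposure were averaged, since a swapped pair is a technical copy. Groups and exposure numbers came from the sample titles, and dyes from the channel labels. The members, tests and the rule for named members were chosen with earlier results of these data known. Named were the 2 members of each sign with the largest smallest LC25 median, up to 2 of each sign with the largest ratio among those past a test's threshold, and the member of each sign with the lowest p in the mean at 1/10 LC50.

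limma 3.58.1 in R 4.3.3 (lmFit, eBayes) fitted the 6 groups together on exposure averages, with a dye term of +1 or -1 for single arrays and 0 for pairs, over 5495 features valued in at least 2 exposures of every group. This filter left out 5 members. Each contrast was refitted. All p-values are two-sided, and 0.05 was the threshold. Adjusted p-values are Benjamini-Hochberg adjusted over all features of the test in question. These were 5495 in this fit and 6037 for the dye deviation and the pair mean, and other numbers in some alternatives. Unadjusted p-values are named as such. The script was tested on simulated data. The number of arrays limits the precision, since spot brightness was not used here. Gene lists were not run, because 0 of 7680 identifiers matched the table of 28335 genes, and no sequences are printed. Alternatives covered the dye reading, the scale, plate medians, filters, weights, blocks and leaving out each exposure.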

Additional observations from a re-analysis of the deposited data

Results flagged for a closer look

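Of 46 groups of values examined, 6 had an exposure far from the others of its group by Dixon's gap ratio at its 95% critical value, which chance passes in about 1 in 20 groups. The groups share exposures, so they are not independent of each other. LC25 values also chose the members, and some named members were picked by their values at 1/10 LC50. The nominal rate therefore need not hold here, and nothing is read from the count. Exposure 3 of ZnO NP at the LC25, a swapped pair, was the one in 4 of these 6. The median of the positive members was 0.24 there, the lowest of the 4 ZnO NP exposures. P11AH8 was at -1.02 in that exposure and above 0.9 in the other three. A6G17 was at 0.050 and A7G16 at 0.28 in it, and both were below -0.4 in the others. In ZnO NP exposure 4 at 1/10 LC50, a single Cy3 array, P4BG10 was at -1.08 and between 0.33 and 0.57 in the others. In SiO2 NP exposure 4 at the LC25, a single Cy5 array, P6CB10 was at -0.033 and close to -0.39 in the others. Group medians for these members rest on 4 exposures each, and causes were not tested.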

How the results depend on the processing

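The number of features that met the rule, 158, was 51 with values read as Cy5 over Cy3 and 86 with a value required in every exposure. It ran from 91 to 184 when an LC25 exposure was left out, and was 91 without ZnO NP exposure 2 and 99 without ZnO NP exposure 1, where fewer features had enough values. Of the 150 members, 78 met the rule after subtracting plate medians, 82 with means in place of medians, 81 with a value in every exposure, 124 after scaling, and between 77 (without ZnO NP exposure 1) and 129 with an LC25 exposure left out. Members past the threshold at 1/10 LC50, 0 in each group, were 6 with ZnO NP and 1 with ZnSO4 on all arrays with the exposure as a random block, and 8 and 1 with quality weights. All features called were 19 and 12, and 30 and 6, of 5495. For ZnO NP the count ran from 0 to 1 with an exposure left out, and was 1 of 3 features called without exposure 4. In the mean of the 3 groups it was 3 with the random block, 6 with quality weights and 2 with values read as Cy5 over Cy3, of 19, 25 and 33 features called. The random block had a correlation of -0.02, so both arrays of a pair counted almost as separate exposures. Contrasts between toxicants and SiO2 NP stayed at 0 members under the alternatives run. The members' median in that mean, 0.04, ran from 0.01 to 0.12.

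Members past the threshold for the dye deviation, 13, were 19 after scaling arrays to one spread (927 of 6037 features), and ran from 1 to 16 with a pair left out: 1 without ZnSO4 exposure 1, 4 without SiO2 NP exposure 1, 7 and 8 without ZnO NP exposures 2 and 1, and 8 without ZnSO4 or SiO2 NP exposure 2. All features called then were 21, 88, 387, 197, 304 and 398, and 880 where 16 members passed. For the pair mean the count ran from 0 to 2, and was 2 without ZnSO4 exposure 1, the only 2 of 5811 features called.

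Exposure numbers showed no clear pairing of the exposures. Deviations from the group mean correlated at a median of -0.02 for equal numbers (n = 51, from -0.35 to 0.47). For others the median was -0.006 (n = 168, from -0.52 to 0.57). With correlations spread this widely, a median near 0 cannot exclude that some exposures were paired. With a replicate block, 0 members passed in every comparison at 1/10 LC50.

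In the mean at 1/10 LC50 several named members, none past the threshold, turned their sign. With the random block P11AH8 was 0.0059, A4O9 0.034 and A6G17 -0.015. With quality weights P11AH8 was 0.092, A4O9 0.12 and P4BG10 0.055. A4O9 was 0.062 after scaling and 0.0079 after subtracting plate medians. Read as Cy5 over Cy3, P11AH8 was 0.55, A4O9 0.22, P6CB10 0.058, P4BG10 0.52, P12CD9 0.45 and A6G17 -0.38 (limma, adjusted p = 0.0464). With the replicate block P11AH8 was 0.19, A4O9 0.31, P6CB10 0.20, P12CD9 0.034 and A6G17 -0.0077. With an exposure left out P11AH8 ran from -0.18 to 0.090, A4O9 from -0.086 to 0.13, P4BG10 from -0.11 to 0.060 and A6G17 from -0.041 to 0.080. The smallest LC25 median, in the member's sign, was -0.045 for A4O9 and -0.82 for P6BG10 read as Cy5 over Cy3, and that of P6CB10 was 0.029. P4CH2 kept its sign, at 0.012 with the replicate block and 0.030 read as Cy5 over Cy3. Causes were not tested. Chosen after seeing the data were 3 alternatives: the rule with swapped pairs represented by their Cy3 array, which 121 features met, or by their Cy5 array, which 165 met, and the mean without the 2 single-array ZnO NP exposures, in which P11AH8 was 0.16, A4O9 0.081, P4BG10 0.030 and A6G17 -0.034.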
